A study of Mus musculus with 8 samples.

Results

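In 4 single-cell RNA libraries of 4T1 tumours dissociated at 37C, 104 cell barcodes carried more than 5000 RNA molecules each and had no cell type in the deposited annotation. They were chosen by these criteria alone, a raw column sum above 5000 and absence from the annotation file, out of 23980 barcode columns listed for the 8 libraries of the series. The 433 annotated cells at 37C all lay below that sum, and the 239 of them that the authors named tumour cells are the reference used here. 4T1 is a mammary carcinoma line of Balb/c mice. Per the labels, 4T1 cells were injected subcutaneously into Balb/c mice and tumours were taken on day 10, and pieces from different mice were pooled for each condition. All pools were digested for 1 h with a Bacillus licheniformis protease in a gentleMACS instrument, after which red blood cells, debris and dead cells were taken out. One pool at 37C had no inhibitor and the other had actinomycin D at 2 nM, a compound that blocks transcription. Each suspension was divided into aliquots A and B for libraries, so the 4 libraries at 37C stand for 2 suspensions, and every p-value measures the spread between these libraries only.

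In droplet sequencing, each captured cell shares a droplet with a bead whose barcode marks its RNA, and random tags on the primers (unique molecular identifiers, UMIs) let copies of 1 molecule be counted once. The UMI total of a barcode depends on the RNA content of what was captured, on how many cells shared the droplet and on capture efficiency. In cells that divide, replication and mitosis genes are transcribed in turn: MCM proteins license replication origins and Pcna clamps the polymerase in S phase, and Top2a, which untangles DNA, and the cyclin-dependent kinase Cdk1 act in G2 and mitosis. Interferon-gamma induces the chemokines Cxcl9, Cxcl10 and Cxcl11, which draw activated T cells and NK cells through the receptor Cxcr3. Immediate-early genes such as Fos, Jun and Atf3 are transcribed within minutes of a disturbance, dissociation included.

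The large barcodes held 841059 UMIs, 35.6% of all UMIs of the 4 libraries. Values per library are given throughout in the order no inhibitor A, no inhibitor B, actinomycin D A and actinomycin D B. There were 16, 23, 41 and 24 large barcodes, with summed counts of 130160, 175711, 345298 and 189890. The tumour cells of the same libraries summed to 87385, 112955, 118040 and 150065 UMIs. As a share of large and annotated barcodes together, the large ones made up 13.9% (95% Clopper-Pearson interval 8.17 to 21.6), 16.7% (10.9 to 24), 27.7% (20.7 to 35.7) and 17.6% (11.6 to 25.1). The actinomycin D A library had the highest share, and its interval overlapped those of the other libraries. A large barcode had 5018 to 17460 UMIs (median 7731) and 2066 to 5039 genes (median 3081), against medians of 1557 UMIs and 940 genes and a maximum of 4963 UMIs in the tumour cells. Class and UMI count therefore cannot be told apart: no annotated cell was as large. Of 23660 distinct barcodes in the 8 libraries, 318 were listed in more than 1 library. No barcode was large in more than 1 library, and 3 large ones were also listed in another library with at most 39 UMIs.

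**Figure D1:**
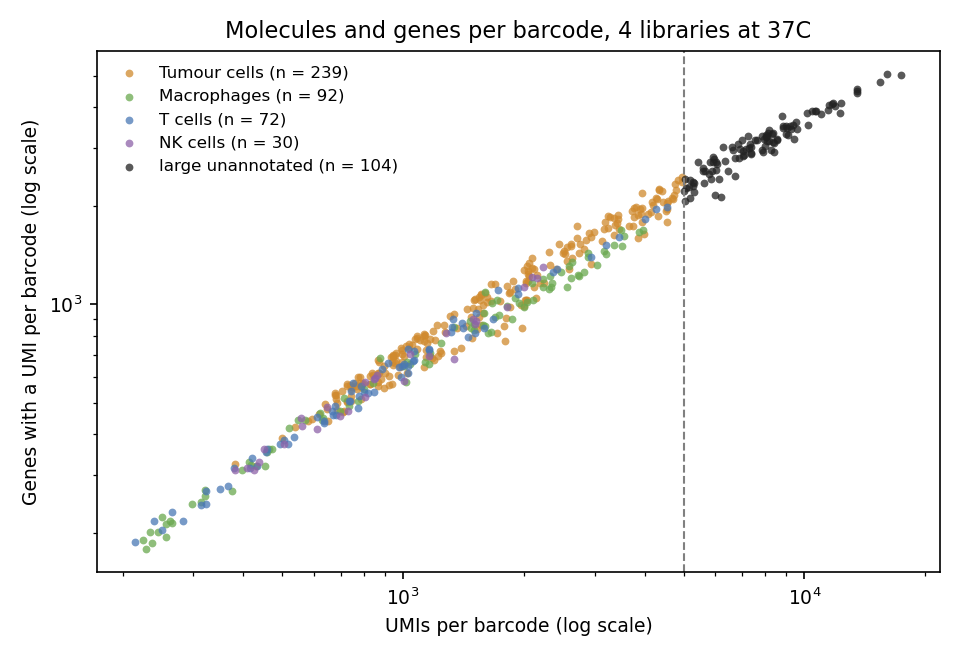
UMIs per barcode (x axis, log scale) against genes with at least 1 UMI (y axis, log scale) for the annotated cells and the 104 large unannotated barcodes of the 4 libraries at 37C; each point is 1 barcode and the dashed line marks 5000 UMIs. The large barcodes begin at 5018 UMIs and the annotated cells end at 4963.

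The threshold fell in a continuous run of sizes. The 5 barcodes just inside had 5018, 5032, 5044, 5062 and 5169 UMIs. The 5 just outside were all annotated tumour cells and had 4758, 4798, 4855, 4943 and 4963 UMIs, with 2235 to 2455 genes. Between 4000 and 5000 UMIs, 27 barcodes were annotated, 24 of them as tumour cells, and 2 were not. Of the large barcodes, 47 had over 8000 UMIs and 19 over 10000. How the authors admitted cells is not stated in the labels or the files used here.

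The genes on which the results turn include Cxcl9, Cxcl10 and Top2a. Cxcl9 lies at chr5:92321347-92328079 and Cxcl10 at chr5:92346638-92348889, both on the minus strand, and Top2a at chr11:98992943-99024189 on the minus strand (GRCm38). Their promoters are shown because the 3 genes were called higher in the large barcodes. Of the 104 large barcodes, 17 held a UMI of Cxcl9 and 29 of Cxcl10. UMIs of Cxcl9, Cxcl10 and Cxcl11 occurred together in 11. The runs are the 250 bases before each RefSeq transcription start (GRCm38.p6), read 5′ to 3′ on the gene's strand: chr5:92328080-92328329 for Cxcl9, chr5:92348890-92349139 for Cxcl10 and chr11:99024190-99024439 for Top2a. Capitals mark matches, on either strand, to an interferon element and an NF-kB core in the chemokine promoters and to CCAAT and TTTGAA in that of Top2a.
Cxcl9: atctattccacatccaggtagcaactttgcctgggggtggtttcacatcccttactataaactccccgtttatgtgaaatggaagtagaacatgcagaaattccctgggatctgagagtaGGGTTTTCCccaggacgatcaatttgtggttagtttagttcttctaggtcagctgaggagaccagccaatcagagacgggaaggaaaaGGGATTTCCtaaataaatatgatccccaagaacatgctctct
Cxcl10: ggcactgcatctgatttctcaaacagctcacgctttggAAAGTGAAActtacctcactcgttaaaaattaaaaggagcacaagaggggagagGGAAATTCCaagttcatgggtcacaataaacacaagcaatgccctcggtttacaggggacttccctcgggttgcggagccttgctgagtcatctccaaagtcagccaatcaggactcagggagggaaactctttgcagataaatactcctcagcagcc
Top2a: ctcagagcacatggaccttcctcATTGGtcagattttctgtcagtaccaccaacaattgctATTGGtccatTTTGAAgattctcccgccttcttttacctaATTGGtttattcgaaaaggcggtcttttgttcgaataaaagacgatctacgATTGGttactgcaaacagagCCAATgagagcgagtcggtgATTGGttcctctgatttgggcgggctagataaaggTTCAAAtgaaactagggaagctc

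The motifs searched in the chemokine promoters were the core of the interferon-stimulated response element (TTTCNNTTT) and an NF-kB core (GGNNTTTCC). Of 32851 RefSeq promoters of the same length, 9.37% held the first and 4.93% the second. The Cxcl9 window held 2 NF-kB matches, at -130 to -122 and -42 to -34 from the start. The Cxcl10 window held 1 interferon-element match, at -212 to -204, and 1 NF-kB match, at -158 to -150, both on the other strand. In the Top2a promoter the search was for the NF-Y box CCAAT (in 33.8% of promoters) and the cell-cycle homology element TTTGAA (in 16.0%). It found 6 CCAAT boxes, 5 of them on the other strand, and 2 TTTGAA elements, at -179 to -174 and, on the other strand, at -23 to -18. None of these matches overlapped another. The Cxcl9 and Cxcl10 windows also held 1 CCAAT each, at -65 to -61 and -54 to -50, left in lower case. A match is a description of letters, not a bound site.

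By summed profile, the large barcodes were more like the tumour cells than the other annotated types. Their summed profile correlated with that of the tumour cells at r = 0.961 across 2865 genes (log2 scale), against 0.528 for macrophages, 0.483 for T cells, 0.453 for NK cells and 0.779 for barcodes under 100 UMIs. Taken singly, 103 of the 104 were most like the tumour cells less those that share blocks, and 1 was most like T cells. The only other references for single barcodes were macrophages and NK cells, so likeness to fibroblasts was not tested. The 103 include 4 barcodes with over 20 per 10000 of the markers of another cell type. These correlations are across genes of summed profiles from shared libraries and are descriptions. The 2865 genes were those that passed the filter on the sums of large barcodes and tumour cells, so they were chosen through these classes. No gene of the macrophage, T cell or NK cell lists was among them. Over the same genes the tumour cells themselves gave 0.533 with macrophages, 0.473 with T cells and 0.445 with NK cells. The reference sums also differ in depth, from 468445 UMIs in the tumour cells to 31210 in the NK cells. With the tumour cells less those that share blocks, r was 0.943. Epithelial and 4T1 carcinoma markers took 50.7, 52.2, 56.6 and 52.6 of 10000 UMIs in the large barcodes and 59.3, 63.2, 59.4 and 72.3 in the tumour cells. The large barcodes were below the tumour cells in each library, with no test, since the authors named the cells from expression. Keratin 8 (Krt8) had means of 3.97 and 4.56 per 10000, keratin 18 (Krt18) 9.21 and 11.8, and osteopontin (Spp1), a secreted matrix protein, 17.1 and 21.9. Of the 16 epithelial markers, the adhesion genes Epcam and Cdh1 were at 0 in both classes, and the list was carried by keratins, Spp1 and Wfdc2.

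Leukocyte and stromal markers were low in the sums. The macrophage list took 3.16 per 10000 in the large barcodes, 4.08 in the tumour cells and 163 in barcodes under 100 UMIs, which are taken to hold mostly free RNA. The T cell list took 0.43 and 0.18, and the fibroblast list 4.14 and 1.85. By library, the fibroblast list took 0.54, 0.68, 8.60 and 6.74 in the large barcodes. The leukocyte antigen Ptprc had 7 UMIs in 3 large barcodes, the macrophage lysozyme Lyz2 23 UMIs in 20 and the T cell receptor subunit Cd3e 4 UMIs in 1. The Ptprc and Cd3e counts lay in few members, and those of Lyz2 were spread. The macrophage list was at 0 in 29 of the 104 barcodes, with a median of 1.61 per 10000.

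A group of 5 large barcodes stood apart, with over 20 per 10000 of the markers of another cell type, a threshold set after seeing the data. One in the no inhibitor A library (8279 UMIs) had 71.3 per 10000 of the macrophage list, with 31 UMIs of arginase Arg1, beside 103 of the epithelial list. One in actinomycin D A (9603 UMIs) had 28.1 of the macrophage list, mostly Apoe and Arg1, beside 44.8 epithelial. These 2 carried macrophage and carcinoma markers in 1 barcode. One in actinomycin D A (5323 UMIs) had 99.6 of the T cell list, including 19 UMIs of Trbc2, 12 of Trac, 6 of Cd3d and 6 of Cd8a, and 1.88 of the epithelial list. It was the barcode most like T cells, and it also had 130 per 10000 of the G2 and mitosis list and 67.6 of the S phase list. A barcode in actinomycin D A (7880 UMIs) had 278 per 10000 of the fibroblast list, with 78 UMIs of Col3a1, 50 of Col1a1 and 38 of Col1a2, and its epithelial value of 44.4 was all Spp1. One in actinomycin D B (6335 UMIs) had 170 of the fibroblast list beside 77.3 epithelial. In the other 99, the macrophage list reached at most 13.4, the fibroblast list 10.0, the endothelial list 15.2 and the T cell list 1.42, and the epithelial list ran from 10.6 to 161 (median 54.9). No doublet caller was run, and whether a barcode held 1 cell or several of the same type was not tested.

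**Figure D2:**
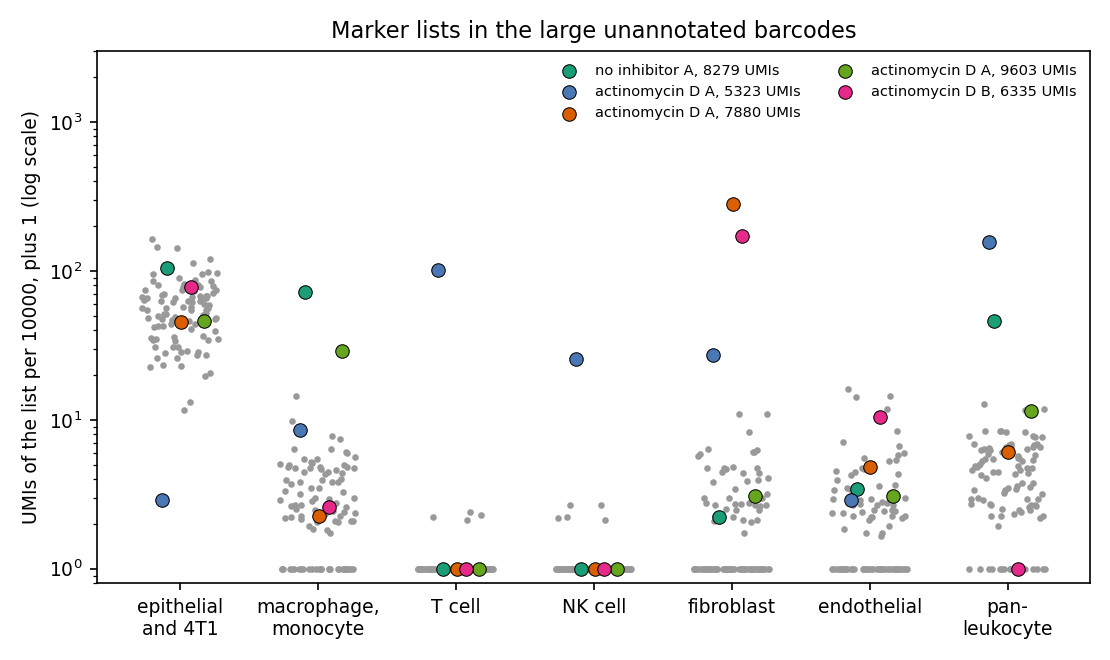
UMIs of 7 marker lists per 10000, plus 1 (y axis, log scale), in each of the 104 large barcodes. Grey points are the 99 with at most 20 per 10000 of each non-epithelial marker list. Coloured points are the 5 set apart by markers of another cell type. Of the 5, 4 also carry at least 44.4 per 10000 of the epithelial list, and the T cell barcode carries 1.88.

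The barcodes themselves linked many tumour cells to large ones. A ddSEQ barcode is made of 3 blocks of 6 bases. Of the 239 tumour cells, 78 (32.6%) had the same 2 of 3 blocks as a large barcode of their own library: 10 of 41, 29 of 67, 24 of 55 and 15 of 76. Among macrophages it was 2 of 92, among T cells 0 of 72 and among NK cells 0 of 30, and among barcodes under 100 UMIs 86 of 10671. In all, 56 of the 104 large barcodes had such a tumour cell. Over 80 pairs, the tumour cell had a median of 12.2% of the large barcode's UMIs (3.08% to 80.9%). The profiles of a pair, centred on the library, correlated with a median r of 0.314, against -0.02 in 6196 other pairs of a large barcode and a tumour cell of the same library. In no inhibitor B, 2 large barcodes (17460 and 7553 UMIs) shared 2 blocks with each other, so the 104 make 103 groups. The 78 cells held 22.0% of the tumour cells' UMIs. Their origin was not tested, so the count of called genes and several of the values below are also given without them, as an alternative added after seeing the data.

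At equal depth, the large barcodes held slightly more genes than tumour cells. After thinning each barcode to 1000 UMIs, the median large barcode had 720.5, 723, 696 and 729.5 genes, and the median tumour cell 692, 700, 694.5 and 679. Tumour cells with fewer UMIs, 10, 26, 13 and 23 of them, were left out. The large barcodes were higher in 4 of 4 libraries, by 25.9 genes on average (SD of the difference 20.1), and in actinomycin D A by less than 2 genes. The exact paired permutation p was 0.125, the smallest that 4 libraries allow. Without the tumour cells sharing blocks the difference was 36.9 genes.

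Across genes, few separated the classes. With counts summed per library and class and the library as a block, 66 of 2865 tested genes (2.3%) passed an adjusted p of 0.05 in edgeR's quasi-likelihood test, 16 higher in the large barcodes (0.558%) and 50 lower (1.75%). Without the tumour cells sharing blocks, 78 of 2648 (2.95%) passed, 18 higher (0.68%) and 60 lower (2.27%), and 53 genes passed in both fits. Without the 5 barcodes set apart, 63 passed, 57 of them the same genes. The count was 18 without the no inhibitor B library and 30 without actinomycin D A, and 1 and 123 for these in the fit without sharing cells. It was 37 with the aliquots of a suspension summed, in which 14 of the 33 named genes with a call lost it. Those were Foxm1, Cks1b, Cd24a (adjusted p = 0.104), Lman1 (0.0669), Tomm70a (0.137), Lrig1 (0.0526), Bnip3 (0.139), B2m (0.0561), Cryab (0.0878), Hspa1b (0.0989), Malat1 (0.159), Anxa1 (0.0812), Tmsb4x (0.0812) and Krt18 (0.104).

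Top2a, Foxm1 and Cks1b, genes of the cell cycle, were higher in the large barcodes. Top2a was at 3.76, 3.93, 2.52 and 4.21 per 10000 UMIs in the large barcodes and at 1.37, 2.66, 1.36 and 1.67 in the tumour cells. It was higher in each library, by 0.97 ± 0.19 on the log2 scale (SE, adjusted p = 0.00235), and by 1.07 ± 0.23 without the sharing cells (adjusted p = 0.00673, or 0.101 with no inhibitor B left out as well). Its 285 UMIs came from 59 of the 104 barcodes. Foxm1, a transcription factor of G2 and mitosis genes at chr6:128362967-128376146, was at 1.54, 1.25, 0.492 and 2.16 against 0.458, 0.531, 0 and 0.8, a difference of 1.54 ± 0.34 (adjusted p = 0.00783, or 0.056 with the aliquots of a suspension summed). Cks1b, a subunit of cyclin-dependent kinases, was at 3.30, 4.78, 2.64 and 3.90 against 1.6, 2.48, 1.44 and 3.00 (0.70 ± 0.18, adjusted p = 0.0316). The Cks1b call was lost without the sharing cells (0.73, adjusted p = 0.0544), with aliquots summed (0.151) and when any library but actinomycin D B was left out.

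The lists as a whole lay on the same side. The S phase list took 37.3, 42.7, 29.6 and 47.2 per 10000 in the large barcodes and 19.2, 27.1, 25 and 33.0 in the tumour cells (15.8, 21.3, 19.5 and 29.0 without the sharing cells). None of its 19 tested genes passed, but all 19 log2 differences were above 0, with a median of 0.51 against -0.01 over all 2865 genes. The G2 and mitosis list took 65.2, 59.2, 38.9 and 72.4 against 36.0, 41.3, 35.7 and 50.2. Of its 24 tested genes 2 were higher, Top2a and Cks1b, against 0.558% of all tested genes, and the Cks1b call was lost as above. Of the 24 differences, 22 were above 0, and the median was 0.42. In both lists the 2 classes differed least in actinomycin D A, in which the S list differed by 4.61 and the G2 and mitosis list by 3.20. In barcodes under 100 UMIs the lists took 21.1 and 33.3 per 10000.

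Single members of these lists mostly missed the threshold. Cdk1 was at 1.54, 1.59, 0.782 and 1.58 against 0, 0.708, 0.593 and 0.8 (1.18 ± 0.34, adjusted p = 0.056). Ube2c, which marks cyclins for destruction, gave 0.86 (adjusted p = 0.0587), Pcna 0.57 (0.172) and the licensing factor Mcm2 0.65 (0.305). Rrm2, the ribonucleotide reductase subunit made in S phase, gave 0.64 (0.204) in the main comparison and 1.10 ± 0.32 (0.046) without the sharing cells. Mki67, with 51 UMIs in 27 large barcodes, and Ccnb1, with 52 UMIs in 18, were too sparse to be tested. The linker histone Hist1h1c went the other way, at 0.538, 0.341, 0.724 and 0.632 against 1.95, 1.95, 1.86 and 1.07 (-1.58 ± 0.29, adjusted p = 0.000732). It was lower in each library, and it was the 1 of 8 tested histone genes that passed, against 1.75% of all tested genes lower.

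The interferon-gamma-induced chemokines Cxcl9, Cxcl10 and Cxcl11 were also higher in the large barcodes. Cxcl10 was at 3.46, 13, 4.4 and 3.74 per 10000 in the large barcodes and at 1.95, 7.17, 2.46 and 1.07 in the tumour cells. It was higher in each library, by 0.95 ± 0.16 on the log2 scale (adjusted p = 0.000467) and by 1.46 ± 0.21 without the sharing cells (adjusted p = 2.21e-05). Cxcl9 was at 0.0768, 6.66, 2.98 and 4.00 against 0.114, 1.77, 0.762 and 1.13, a difference of 1.80 ± 0.22 (adjusted p = 7.87e-07). It was higher in 3 of 4 libraries, with 1 UMI in the large barcodes and 1 in the tumour cells of no inhibitor A. Cxcl11 (chr5:92359544-92365485, minus strand, annotated as a polymorphic pseudogene) was at 0.538, 3.87, 2.29 and 2.48 against 0.343, 1.06, 0.169 and 0.267 (2.35 ± 0.31, adjusted p = 2.08e-06). Against all tumour cells, the 3 genes kept their calls with 1 library left out in each fit that tested them. With no inhibitor B and the sharing cells both left out, the calls of Cxcl9 and Cxcl10 were lost (adjusted p 0.073 for each). Without the sharing cells, Cxcl9 gave 2.39 ± 0.36 over the 4 libraries (adjusted p = 5.32e-05), and Cxcl11 was too sparse to be tested.

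These chemokine UMIs came from few members. The 16 barcodes with at least 10 UMIs of the 3 genes together (3 of 16, 5 of 23, 6 of 41 and 2 of 24) held 940 of the 994 UMIs, and 11 barcodes held UMIs of all 3. For Cxcl9, 17 of 104 large barcodes (16.3%, 95% Clopper-Pearson interval 9.82 to 24.9, median depth 7731 UMIs) had a UMI. So did 11 of 92 macrophages (12.0%, 6.12 to 20.4, median depth 1473 UMIs), 18 of 239 tumour cells (7.53%, 4.52 to 11.6, median depth 1557 UMIs) and 0 of 72 T cells (up to 4.99%, median depth 831.5 UMIs). The depths differ, so no order is read from these shares. The 5 richest barcodes held 85.9% of Cxcl9, 62.5% of Cxcl10 and 75.6% of Cxcl11. One of the 16 was among the 5 set apart. Described by medians, the 16 had 69.2 per 10000 of hypoxia and glycolysis genes against 109 in the other 88, 46.6 against 73.3 of NRF2 targets, 36.9 against 67.6 of matrix glycoproteins, and 64.8 against 34.4 of the G2 and mitosis list. They were chosen by their chemokine counts and had more UMIs (median 9224 against 7348), so these medians carry no test.

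Few other immune genes passed. Of the 12 tested genes of the chemokine and NF-kB list, Cxcl9 and Cxcl10 passed, against 0.558% of all tested genes higher. The median of the list was 0.27, against -0.01 over all tested genes. Ccl2, which attracts monocytes, was at 7.38, 7.23, 3.79 and 5.69 against 2.52, 5.75, 4.49 and 3.60 (0.43, adjusted p = 0.204). The MHC class II invariant chain Cd74 was at 2.61, 2.45, 3.65 and 4.32 against 2.63, 1.5, 4.83 and 3.00, without a consistent side (0.07, adjusted p = 0.907). None of the 5 tested MHC class II genes passed. The MHC class I and interferon list took 207 against 226 per 10000 and was lower in each library. Beta-2-microglobulin (B2m), the light chain of MHC class I, was its 1 called gene of 22, against 1.75% of all tested genes lower. It gave -0.27 (adjusted p = 0.0378, or 0.0704 without the 5 set apart and 0.14 to 0.35 without no inhibitor A, no inhibitor B or actinomycin D A). Rnf19b, a ubiquitin ligase, was higher in the large barcodes at 4.53, 6.32, 3.76 and 5.90 against 3.20, 3.63, 1.27 and 2.33 (0.98 ± 0.17, adjusted p = 0.000552).

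Aldoa, Bnip3 and Fth1, genes of glycolysis, hypoxia and iron storage, were lower in the large barcodes. Aldolase A (Aldoa, chr7:126795234-126800751, minus strand) was at 23.1, 23.0, 36.3 and 21.6 per 10000 against 39.5, 37.1, 36.2 and 38.5, a difference of -0.61 ± 0.10 on the log2 scale (adjusted p = 0.000344). The difference lay in 3 libraries, and in actinomycin D A the classes were level. Bnip3, a hypoxia-induced mitophagy receptor, was at 0.999, 0.968, 2.14 and 1.00 against 2.40, 2.57, 2.29 and 2.00 (-0.85 ± 0.23, adjusted p = 0.0348, or 0.0724 without the sharing cells and 0.09 to 0.26 without any library but actinomycin D A). These were the 2 called of 17 tested genes of the list, against 1.75% of all tested genes lower. Of the 17 differences 15 were below 0 (median -0.18), against 1453 of all 2865 (median -0.01). The list took 111, 94.3, 133 and 109 against 150, 121, 141 and 136. Lactate dehydrogenase A (Ldha) gave -0.25 (adjusted p = 0.136). Ferritin heavy chain (Fth1, chr19:9980598-9985098) was at 41.4, 32.4, 47.9 and 37.7 against 58.7, 50.2, 54.2 and 45.2 (-0.44 ± 0.08, adjusted p = 0.0013, or 0.12 without no inhibitor B). It was the 1 of 6 tested NRF2 targets and ferritins that passed, against 1.75% of all tested genes lower. The list took 66.7 against 80.8 per 10000, lower in each library.

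No immediate-early gene passed between the classes, and 2 heat shock genes were called lower in the large barcodes. The immediate-early list took 77.8, 73.0, 33.8 and 29.9 per 10000 in the large barcodes and 84, 68.4, 27.2 and 34.3 in the tumour cells. None of its 20 tested genes passed, 10 lay on each side and the median was 0.00. Fos gave -0.18 (adjusted p = 0.693), Jun -0.26 (0.489), Egr1 0.05 (0.972) and Atf3 -0.33 (0.57). Heat shock genes took 62.6 against 60.1 per 10000, and 12 of the 18 tested had a difference above 0 (median 0.09). The 2 called were lower, against 1.75% of all tested genes lower. Of 18 tested, Hspa1b, an inducible Hsp70, passed at 0.154, 1.42, 0.869 and 0.948 against 1.49, 3.10, 1.36 and 1.00 (-0.97 ± 0.28, adjusted p = 0.0474), as did the small heat shock protein Cryab (-1.12 ± 0.31, adjusted p = 0.0392). Both rest on few molecules. The 75 Hspa1b UMIs came from 14 barcodes, and its call was lost without the 5 set apart (adjusted p = 0.0772) and without no inhibitor A (0.19), no inhibitor B (0.33) or actinomycin D A (0.17). That of Cryab was lost without the 5 (0.0534), without no inhibitor B (0.72) and without actinomycin D A (0.07). The constitutive chaperone Hspa8 gave 0.13 (adjusted p = 0.893). Unfolded-protein genes took 56.0 against 53.3 per 10000, and none of 14 passed.

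Among matrix proteases and inhibitors, Timp1 and Ctsl passed. Of 12 tested matrix glycoprotein genes 1 was lower and 0 higher, against 1.75% of all tested genes lower. None of the 10 tested collagen and basement membrane genes passed, and the list took 28.8 against 28.3 per 10000. Fibronectin (Fn1) was at 4.23, 3.87, 5.36 and 2.79 against 4.12, 6.11, 4.49 and 3.67 (-0.23, adjusted p = 0.542), and the collagen-binding protein Sparc gave -0.04 (adjusted p = 0.934). Timp1, an inhibitor of matrix metalloproteinases, was at 2.77, 4.21, 7.04 and 4.11 against 1.72, 2.83, 1.61 and 2.53 (1.01 ± 0.20, adjusted p = 0.00193). Of its 431 UMIs, 33.9% lay in 1 barcode. Without the 5 set apart it gave 0.50 (adjusted p = 0.158), and without actinomycin D A 0.58 (adjusted p = 0.20). With both the 5 and the sharing cells left out it gave 0.89 (adjusted p = 0.020). Ctsl, a lysosomal protease that is also secreted, gave -0.36 (adjusted p = 0.0316, or 0.29 without no inhibitor B and 0.18 without actinomycin D A). Integrins and adhesion genes took 146 against 147 per 10000, with 0 of 17 called.

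**Figure D3:**
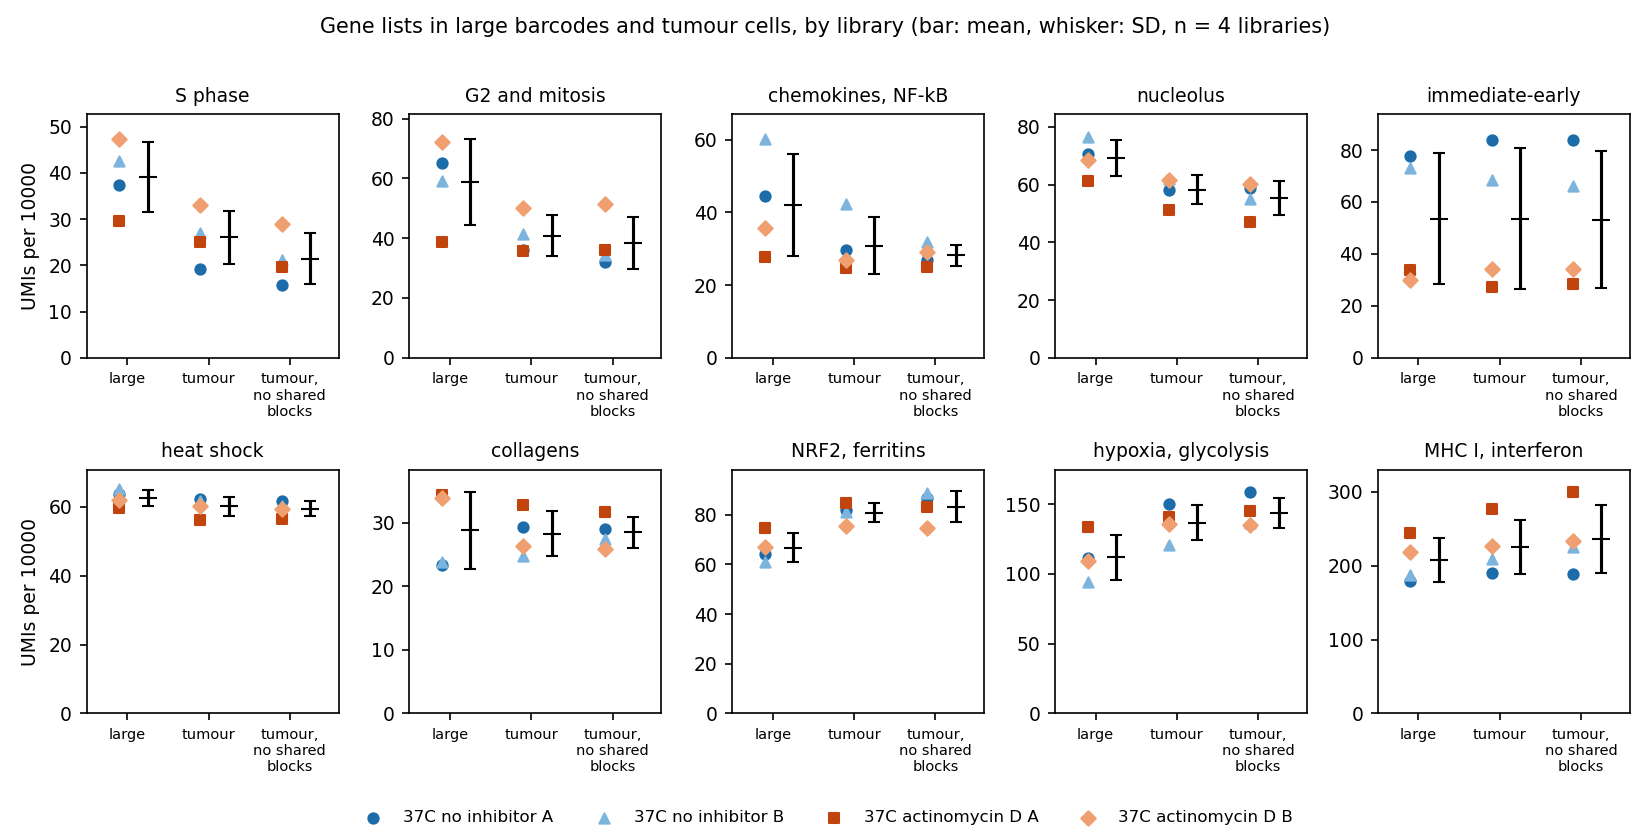
UMIs of 10 gene lists per 10000 (y axes, from 0) in the large barcodes, the tumour cells and the tumour cells without those sharing barcode blocks; each point is 1 library at 37C, the bar is the mean and the whisker the SD over 4 libraries. The S phase, G2 and mitosis, chemokine and nucleolus lists lie higher in the large barcodes in each library, the NRF2, glycolysis and MHC class I lists lower, and the immediate-early list splits by inhibitor.

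Genes of the translation machinery and nuclear RNAs were compared next. Ribosomal protein genes took 1511 ± 79.4 per 10000 in the large barcodes and 1621 ± 50.8 in the tumour cells (SD, n = 4), with 4 of 76 tested genes lower and 0 higher, against 1.75% of all tested genes lower. Of the 76 differences 59 were below 0, with a median of -0.12 against -0.01 over all tested genes. Genes of the nucleolus, in which ribosomes are assembled, took 69.3 ± 6.31 against 58.3 ± 4.92 per 10000, with 0 of 16 called. Nuclear long noncoding RNAs took 6.35 against 8.85. Of 4 tested, Neat1, the scaffold of paraspeckles, was at 1.23, 0.569, 1.39 and 0.632 against 0.801, 2.04, 1.95 and 2.6 (-1.06, adjusted p = 0.0316), and Malat1 gave -1.10 (adjusted p = 0.0454). The Neat1 call was lost without no inhibitor B (0.25), actinomycin D A (0.097) or actinomycin D B (0.30), and that of Malat1 without no inhibitor B (0.42), actinomycin D A (0.34) or the 5 set apart (0.0698). Among cytoskeletal genes, Tmsb4x, which binds actin monomers, gave -0.43 (adjusted p = 0.0367) and the membrane-binding annexin Anxa1 -0.47 (adjusted p = 0.0241). They were the 2 called of 27 tested, against 1.75% of all tested genes lower. Those calls were also lost in leave-one-out fits, up to an adjusted p of 0.25 and 0.22. Mitochondrially encoded genes, often used to judge damage, took 20.4, 4.55, 6.37 and 1.53 per 10000 against 6.87, 4.69, 9.49 and 7.80.

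The remaining genes with the largest differences had varied roles. Higher in the large barcodes were Ankrd1 (1.31 ± 0.31, adjusted p = 0.0175), a target of the YAP pathway, the surface glycoprotein Cd24a (1.01 ± 0.27, 0.0365), the secretory cargo receptor Lman1 (1.00 ± 0.26, 0.0296) and the mitochondrial import receptor Tomm70a (0.99 ± 0.28, 0.0474). Lower were Lrig1, a negative regulator of receptor tyrosine kinases (-1.33 ± 0.32, 0.0228), Trappc6a of a vesicle-tethering complex (-1.17 ± 0.30, 0.0316), coagulation factor F5 (-1.09 ± 0.25, 0.0145), Tmem205 (-1.09 ± 0.24, 0.00882), the receptor Tnfrsf19 (-1.07 ± 0.23, 0.00618), Sap30l (-1.02 ± 0.27, 0.0333) and the microsomal glutathione transferase Mgst3 (-0.95 ± 0.23, 0.0167). Each of these moved the same way in 4 of 4 libraries, which the naming rule required, so this is no result. Tnfrsf19 was at 0.845, 0.797, 2.52 and 0.948 against 3.78, 1.06, 3.39 and 2.73, and it alone of the 11 kept its call without each library in turn. The others lost theirs without at least 1 library. Ankrd1 lost its call without actinomycin D B (adjusted p = 0.18) or no inhibitor B (0.066). Cd24a, Lman1, Tomm70a, Lrig1, Trappc6a, F5, Tmem205, Sap30l and Mgst3 lost theirs without no inhibitor B (0.052 to 0.27), among others. Without the sharing cells the calls of Ankrd1 (adjusted p = 0.0689) and Cd24a (0.0535) were lost.

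Among themselves, the large barcodes varied widely in cell cycle genes. Over the 104, the S phase list ran from 1.89 to 156 per 10000 (median 21.9) and the G2 and mitosis list from 2.54 to 217 (median 36.2). At a line of 50 per 10000, chosen as a range and not as a cell type, 18 barcodes exceeded it for the S list only, 27 for the G2 and mitosis list only, 12 for both and 47 for neither. There were 7 barcodes within 45 to 55 for the S list and 9 for the other list. The barcodes above neither line were 5 of 16, 6 of 23, 28 of 41 and 8 of 24. More of the 47 thus came from actinomycin D A than from the other 3 libraries together.

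**Figure D4:**
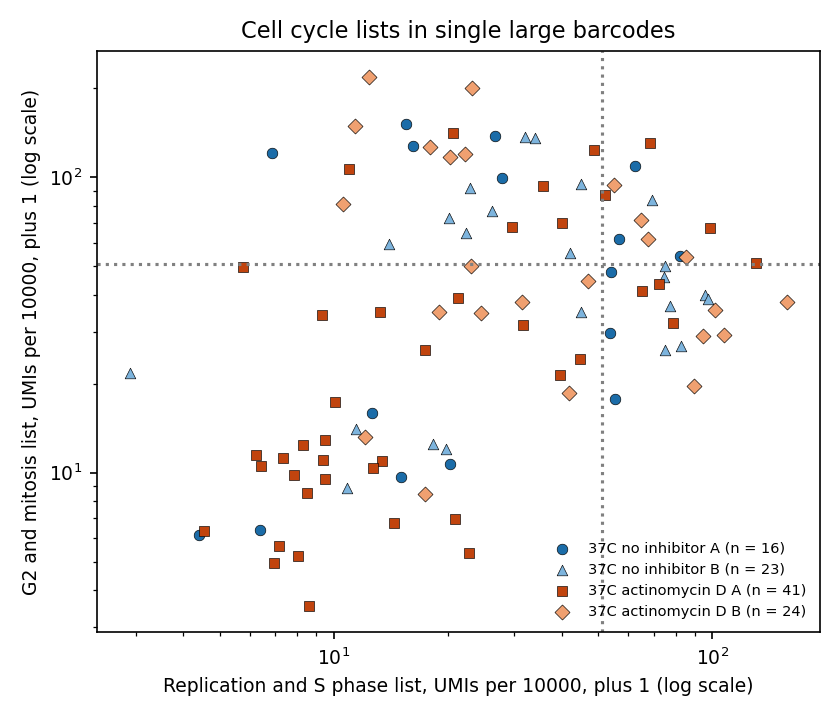
S phase list (x axis) against the G2 and mitosis list (y axis), UMIs per 10000 plus 1 on log scales, for each of the 104 large barcodes by library; dotted lines mark 50 per 10000. Many squares (actinomycin D A) fall in the lower left, where 28 of its 41 barcodes lie, and 27 barcodes lie above the horizontal line only.

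Other lists also varied. Immediate-early genes ran from 3.23 to 156 per 10000, with medians of 72.3, 71.5, 29.3 and 23.0 by library. Hypoxia and glycolysis genes ran from 39.1 to 420 (median 101), NRF2 targets from 20.9 to 169 (median 68.9) and ribosomal protein genes from 951 to 3101. MHC class II genes were at 0 in 28 barcodes and above 20 per 10000 in 14, of which 3 were among the 16 rich in chemokines. The highest values of mitochondrially encoded genes, 66.5, 60.3 and 45.8 per 10000, were all in the no inhibitor A library.

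Sorted by size, levels shifted between the smallest and the largest. The 104 less the 5 set apart, and the tumour cells less those sharing blocks, were put in 4 bins each. The S phase list took 29.4, 21.1, 25.8 and 19.4 per 10000 in tumour cells of up to 1000, 2000, 3500 and 5000 UMIs, and 28.2, 30.1, 46.2 and 45.2 in large barcodes of up to 6500, 8000, 10000 and more. The G2 and mitosis list took 41.7, 29.1, 33.7 and 50.03 and then 40.3, 46.4, 46.7 and 69.8. NRF2 targets took 80.0, 90.8, 84.5 and 76.6 and then 81.4, 77, 66 and 57.4. Above 8000 UMIs the S phase list lay above each tumour cell bin and the NRF2 list below each. The G2 and mitosis list exceeded the 50.03 of the largest tumour cells only above 10000 UMIs. With the threshold raised to 8000 UMIs, 149 genes passed against the tumour cells, 47 of them higher. The bins hold 18 to 47 barcodes each from 4 libraries, and no test was made on them.

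Actinomycin D went with lower immediate-early RNA inside the large barcodes. Between 2 libraries with and 2 without it, 27 of 4008 tested genes (0.674%) passed in edgeR, 9 higher (0.225%) and 18 lower (0.449%). In the tumour cells of the same libraries 19 of 2481 (0.766%) passed, 2 higher (0.0806%) and 17 lower (0.685%), and 10 genes were called in both, out of the 27 and of the 19. Of the immediate-early list, 8 of 23 tested genes were lower in the large barcodes (median -1.17) and 7 of 20 in the tumour cells (median -1.27), against medians of -0.01 and 0.01 over all tested genes. With 1 suspension on each side, the inhibitor and the suspension cannot be told apart.

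Among the genes that were lower were transcription factors and feedback regulators of the early response. Atf3, a stress-induced factor, was at 2.61, 2.96, 0.637 and 0.263 per 10000 in the large barcodes (-2.48 ± 0.36, adjusted p = 0.0053) and changed by -2.01 in the tumour cells (adjusted p = 0.00201). Fosb was at 5.22, 4.44, 1.51 and 1.00 (-1.87 ± 0.27, adjusted p = 0.0053). Junb was at 13.4, 10.8, 3.5 and 3.48 (-1.77 ± 0.20, adjusted p = 0.00201). For each, both libraries with the inhibitor lay below both without it. The matricellular protein Ccn1 was at 3.07, 2.39, 0.174 and 0.895 (-2.56 ± 0.48, adjusted p = 0.0242). The Ccn1 call was lost with thinned sums (0.0653), above 8000 UMIs (0.169) and with DESeq2 (1.0). The NF-kB inhibitor Nfkbia was at 8.53, 7.74, 2.03 and 2.58 (-1.83 ± 0.22, adjusted p = 0.00244). The kinase Sgk1 changed by -2.16 ± 0.33 (0.00556), the pseudokinase Trib1 by -1.96 (0.0146) and Tcim by -1.90 (0.0335, or 0.43 without no inhibitor B). Jun changed by -1.11 (adjusted p = 0.047), a call lost without no inhibitor B (0.14), actinomycin D A (0.11) or the 5 set apart (0.125). Fos, at 5.07, 6.37, 4.46 and 3.53, gave -0.50 (adjusted p = 0.673) and Egr1 -0.42 (0.892).

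Cxcl1, a neutrophil chemokine at chr5:90891241-90893115, was also lower with the inhibitor in the large barcodes. It was at 4.23, 3.81, 0.695 and 0.421 per 10000 in the large barcodes (-2.74 ± 0.31, adjusted p = 0.00201) and at 1.95, 2.74, 0.847 and 2.73 in the tumour cells (-0.35, adjusted p = 0.978). The 154 UMIs came from 28 barcodes, 66.2% of them from 5. The difference between the classes, tested as an interaction, was -2.25 ± 0.53 (adjusted p = 0.358). It passed in 7 of 14 alternative fits, among them the one without the sharing cells (-3.35 ± 0.60, adjusted p = 0.00636). Over all genes, the interaction called 0 of 3703 in edgeR (0%), with 174 at an unadjusted p under 0.05, and DESeq2 called 0 with 14. Without the sharing cells 4 genes passed: Cxcl1, Cxcl9, the mitochondrial gene mt-Cytb (-2.74 ± 0.51, adjusted p = 0.00636) and the hypoxia-induced Ndrg1 (1.59 ± 0.29, adjusted p = 0.00636). Cxcl9 was at 0 in the tumour cells of both libraries without inhibitor in that fit, so its fitted value is not given.

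Of the 9 genes higher with actinomycin D in the large barcodes, 4 (Col3a1, Col1a2, Col1a1 and Thy1) are on the fibroblast list. Col3a1 had 90 UMIs with and 0 without the inhibitor (at least 17.1-fold higher, with 3 counts in the whole group as the floor), Cxcl14 73 and 0 (at least 13.9-fold), Col1a2 66 and 0 (at least 12.6-fold) and Thy1 61 and 0 (at least 11.6-fold). These UMIs came from 2, 4, 2 and 4 barcodes. Col1a1 had 78 against 4 UMIs and Bgn 75 against 4. The 2 large barcodes rich in fibroblast markers are both in the libraries with the inhibitor. So is the T cell barcode, which held 14 of the 61 Thy1 UMIs. Just below the threshold, an unannotated barcode of no inhibitor B (4683 UMIs) had 344 per 10000 of the fibroblast list. With the threshold at 4000 UMIs, Col3a1 gave 1.64 (adjusted p = 0.663 in edgeR), Col1a2 0.23 (0.973), Thy1 0.37 (0.969) and Bgn 0.87 (0.811). Col1a1 reversed there (-0.41, 0.963), and 1 gene in all was called higher at that threshold. Without the 5 set apart these genes were too sparse to be tested, and 18 of 4024 genes (0.447%) passed, 1 higher (0.0249%) and 17 lower (0.422%), 17 of them among the 27. The 1 that remained higher was Plod1, a collagen lysyl hydroxylase at chr4:147909753-147936767 (minus strand). It was at 0.230, 0.285, 1.56 and 1.47 per 10000 in the large barcodes (2.53 ± 0.42, adjusted p = 0.0135, or 0.0181 without the 5, 0.0649 at a threshold of 4000 UMIs, 0.102 with thinned sums and 0.15 with DESeq2), with 90 UMIs in 51 barcodes, and at 1.49, 1.59, 1.44 and 1.53 in the tumour cells. The large barcodes without inhibitor were thus the low group. The interaction for Plod1 was 2.57 ± 0.56 (adjusted p = 0.238).

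**Figure D5:**
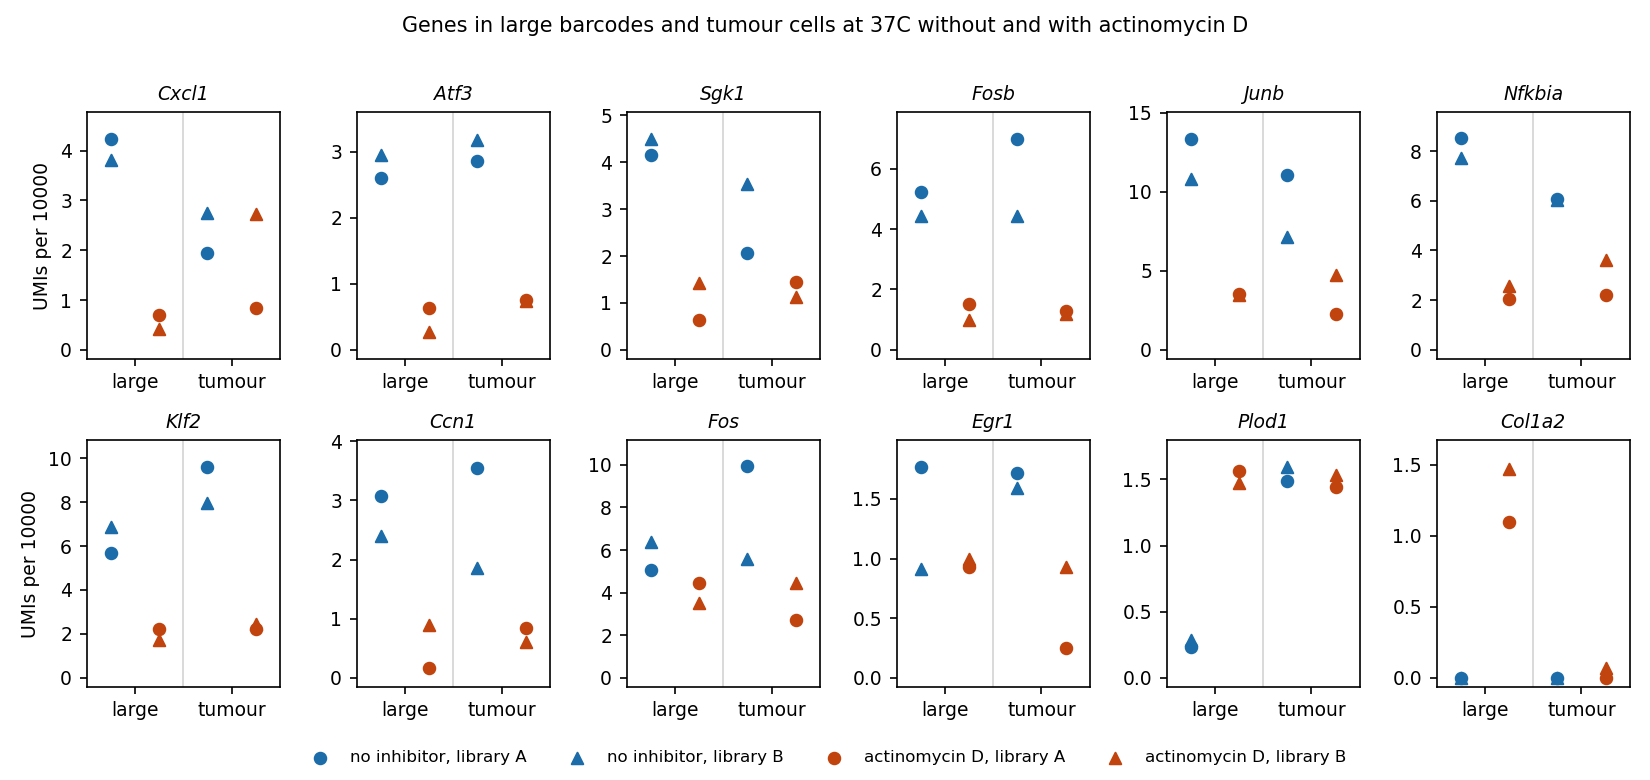
Level of 12 genes (UMIs per 10000, y axes from 0) in the large barcodes and the tumour cells of each library at 37C, without (blue) and with (orange-red) actinomycin D; circles are aliquot A and triangles aliquot B. In the large barcodes Cxcl1, Atf3, Fosb and Junb lie lower in both libraries with the inhibitor, and Plod1 and Col1a2 lie higher.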

How the data were processed

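Single-cell 3' RNA libraries (SureCell, ddSEQ) were measured in 8 samples, of which the 4 at 37C are used here. The deposited library tables hold raw UMI counts per gene and barcode, not normalised. Per the submitters' processing notes, the tools were Seurat, SAMtools, featureCounts 1.6.0, STAR 2.7.1a and UMI-tools on GRCm38. Settings, cell filters and the handling of doublets are not given there. Cell types came from the deposited annotation. Of 17580 gene identifiers, 17520 received a symbol from the annotation table. No column belonged to another series (0 left out), the deposited normalised table was not used, and no doublet caller was run.

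Large barcodes and tumour cells were summed per library. The summed counts, 87385 to 345298 UMIs, were filtered by filterByExpr, scaled by TMM and tested two-sided by edgeR's quasi-likelihood model (glmQLFit, glmQLFTest, version 4.0.16, R 4.3.3), with Benjamini-Hochberg adjustment over all tested genes and a threshold of 0.05. The class comparison had the library as a block, since both classes come from the same library by construction. DESeq2 1.42.0 was an alternative. Differences are log2 fold changes ± SE, large barcodes minus tumour cells or actinomycin D minus no inhibitor. Levels are UMIs per 10000 UMIs of the class in a library, and list levels are sums over members. Genes per barcode were compared at 1000 UMIs by an exact permutation test (Python 3.11.15, SciPy 1.17.1, NumPy 2.4.6, pandas 2.3.3, Matplotlib 3.10.9). Intervals and floors (3 counts) cover counting error only, and A and B were aliquots of 1 suspension. The fit was tested on simulated data.

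The members, the 42 gene lists and the naming rule were chosen with earlier results of these data known. Between classes the rule took called genes whose mean log2 CPM was at least 6 and whose sign was the same in 4 libraries, and named the 10 furthest up and the 10 furthest down. For the inhibitor it named 8 and 8, plus list members and a fixed set from Mki67 to Cd3e whatever their call. Predicted genes and pseudogenes with symbols starting Gm or ending Rik were counted but not named. Cell type markers were given as values and not read as a test between classes. They stayed in the fits and in the counts of called genes. There, 2 of 5 tested epithelial markers were called lower, Krt18 among them, against 1.75% of all tested genes lower. The result of 1 gene under this rule is not reported here.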

Additional observations from a re-analysis of the deposited data

Results flagged for a closer look

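At 4C, 1 unannotated barcode exceeded 5000 UMIs, in the no inhibitor A library, and it enters no comparison of the report. It had 5049 UMIs and 2593 genes. Epithelial and 4T1 markers took 49.5 per 10000, the G2 and mitosis list 168, the S phase list 29.7, the immediate-early list 13.9 and the glycolysis list 69.3. It held no UMI of the macrophage, T cell or fibroblast lists. The large barcodes at 37C held 4 UMIs of the hygromycin resistance sequence HygroR, a designed feature of the tables (2 in no inhibitor A, 1 in actinomycin D A and 1 in actinomycin D B). Annotated tumour cells held 2 UMIs of it, and macrophages, T cells, NK cells and barcodes under 100 UMIs held 0, for each of which a floor of 3 counts applies. The sequence was not compared between groups, and its source was not tested.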

How the results depend on the processing

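The 66 genes called between large barcodes and tumour cells became 37 with aliquots summed, 546 with all annotated cells as the reference, 40 without the filter on low counts, 149 with barcodes above 8000 UMIs, and 1 with no library term and so no replicate block. DESeq2 called 14, with 0 higher in the large barcodes and 14 lower. It gave an adjusted p for 144 of the 2865 genes only, and for 19 of the 66. Without the tumour cells sharing blocks DESeq2 called 23, of which 3 were higher and 20 lower. Leaving out 1 library gave 18 to 50, and 1 to 123 in the fit without the sharing cells. Other settings gave 56 to 96. The 27 genes called for the inhibitor within the large barcodes became 14 with DESeq2, 94 without the filter, 4 above 8000 UMIs and 35 to 102 with 1 library left out, where the lone library is assumed to vary like the pair. A replicate block by letter gave 33. The letters did not pair the samples (r = 0.0605 over 4008 genes). The interaction, 0 as reported, called 3 genes without the filter, 4 without the sharing cells, 3 above 8000 UMIs, 1 with at least 20 counts, 5 with thinned sums and 1 to 8 with 1 library left out. The difference in genes per barcode ran from 17.7 to 34.0 with 1 library left out, 11.3 at 500 UMIs. The directions that reversed were those of Krt18 against all annotated cells (0.12) and Col1a1 for the inhibitor at a threshold of 4000 UMIs (-0.41). Over the named genes that were called and all alternatives, calls held in 469 cases, were lost in 233 and reversed in 1 between classes, and held in 260, were lost in 48 and reversed in 1 for the inhibitor. Settings involving the sharing cells or the 5 barcodes set apart were chosen after seeing the data. The causes were not tested.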
